A study of Mus musculus with 7 samples.

Results

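The genes described here are 37 regulators of the cell division cycle and of DNA replication, read from arrays of Ocn+ and Osx+ cells of mouse bone marrow. They were chosen by name, with earlier results of these data known. By the stage at which they act they were sorted into 11 G1 genes, 12 S-phase genes and 14 genes of G2 and mitosis. A gene was taken as measured when a probe set of the array carried its symbol and no other, and where several did, the probe set with the highest mean over the 7 arrays stood for it. That left 36 of 37 members, among 12393 genes in all, with Ccnb1 not analysed here.

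The 3 Ocn+ arrays held cells sorted for the Topaz reporter driven through osteocalcin (Ocn), and the 4 Osx+ arrays held cells sorted for the mCherry reporter driven through osterix (Osx). Both populations came from OsxCre-mCherry;OcnCre-Topaz double transgenic mice of 4 to 6 weeks, all given tamoxifen 6 days before sorting, so the transgenes and the drug were common to both groups. Cells carrying both colours were not analysed here. The labels do not say whether arrays came from separate animals or pools, and a p-value therefore reflects no more than how these samples scatter, possibly for technical reasons. The reporter marks cells in which a promoter drove Cre, and does not show that the gene was active at sorting.

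In G1, D-type cyclins with Cdk4 or Cdk6, and then E-type cyclins with Cdk2, phosphorylate the retinoblastoma protein and so free E2F factors, while the CIP/KIP inhibitors restrain these kinases. E2F factors drive the genes of S phase, which load and fire replication origins, clamp the polymerase and supply deoxynucleotides. In G2 and mitosis, A- and B-type cyclins with Cdk1, the Aurora and Polo kinases and the spindle checkpoint divide the chromosomes. Osteoblast precursors divide, and division ceases as osteoblasts mature, so transcripts of this kind are commonly read as a sign of how much of a bone-forming population is cycling.

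The promoter sequences below show the elements by which the S-phase and mitotic genes are commonly told apart, and are printed because the results are ordered by these groups. E2F factors bind near TTTNNCGC, NF-Y binds CCAAT, and the cell cycle homology region (CHR, TTTGAA) is bound by the MuvB complexes that restrain or activate mitotic genes. The 250 bases before each gene's start were taken from RefSeq (GRCm38.p6), where 29 of the 36 measured members had a window, and searched on both strands. Ccnd3, Cdkn1a and Mcm7 had 2 windows each, and a gene was counted for a motif if any of its windows held it. Capitals mark every match to these 3 motifs, as the reverse complement where it lay on the opposite strand, printed 5′ to 3′ along the gene's strand, and no base of a member's window lay in 2 motifs. The windows are those of Mcm6 (chr1:128359706-128359955, minus strand), Cdk1 (chr10:69352913-69353162, minus strand), Top2a (chr11:99024190-99024439, minus strand) and Cdkn1b (chr6:134920151-134920400, plus strand).
Mcm6: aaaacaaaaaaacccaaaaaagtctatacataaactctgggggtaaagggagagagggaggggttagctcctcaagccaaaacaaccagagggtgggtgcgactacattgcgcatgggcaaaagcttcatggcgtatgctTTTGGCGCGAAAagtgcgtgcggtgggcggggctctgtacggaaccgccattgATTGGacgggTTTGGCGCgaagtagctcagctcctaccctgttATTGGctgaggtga
Cdk1: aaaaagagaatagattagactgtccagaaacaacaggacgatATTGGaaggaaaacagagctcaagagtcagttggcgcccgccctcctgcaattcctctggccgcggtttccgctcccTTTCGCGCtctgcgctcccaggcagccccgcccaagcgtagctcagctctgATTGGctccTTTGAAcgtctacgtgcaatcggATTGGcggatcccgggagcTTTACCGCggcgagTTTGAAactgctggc
Top2a: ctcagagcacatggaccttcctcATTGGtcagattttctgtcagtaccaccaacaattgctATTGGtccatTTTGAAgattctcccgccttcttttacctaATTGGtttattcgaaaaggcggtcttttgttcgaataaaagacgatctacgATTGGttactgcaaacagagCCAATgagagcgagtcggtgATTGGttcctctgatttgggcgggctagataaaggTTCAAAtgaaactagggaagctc
Cdkn1b: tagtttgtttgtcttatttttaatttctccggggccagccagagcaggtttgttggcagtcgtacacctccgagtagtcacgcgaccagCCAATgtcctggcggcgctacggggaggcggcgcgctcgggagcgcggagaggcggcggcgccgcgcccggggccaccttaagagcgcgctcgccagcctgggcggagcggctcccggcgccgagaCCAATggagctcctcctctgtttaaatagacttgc

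The E2F motif was found in 4 of 11 S-phase members, in 2 of 7 G1 members and in 1 of 11 mitotic members, Cdk1. Among the 9887 genes of the arrays with a window, 7.4% held it. The CHR motif was found in 6 of 11 mitotic members (Ccnb2, Cdc20, Cdk1, Kif11, Mki67 and Top2a), in 2 of 11 S-phase members (Cdc45 and Mcm2) and in 0 of 7 G1 members, beside 13.8% of those 9887 genes. CCAAT was found in 10 of 11 mitotic, 9 of 11 S-phase and 3 of 7 G1 members, beside 39.9%. The Mcm6 window held 3 E2F matches, of which 2 overlap, the Cdk1 window all 3 motifs and the Top2a window 6 CCAAT and 2 CHR matches. These are matches of letters and not measured sites, and the array reads no binding.

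The signal of an array is a log2 value, on which a difference of 1 means a doubling, and it depends on the probes, so levels of different genes are not set against each other. Array medians lay between 8.25 and 8.35. Of 12 osteolineage markers 8 were measured, and an array level alone does not settle which cells were present. Col1a1, the main bone collagen, averaged 14.95 ± 0.03 over the 3 Ocn+ arrays and 15.00 ± 0.05 over the 4 Osx+ arrays (mean ± SD). Sp7, which encodes osterix, averaged 12.65 ± 0.35 over the 3 Ocn+ arrays and 12.47 ± 0.31 over the 4 Osx+ arrays (mean ± SD). The osteocalcin genes were not analysed here. The 7 arrays fell into 2 classes that cross the sort. Xist, the RNA that coats the inactive X chromosome, read 5.47, 12.33 and 12.37 in Ocn+ replicates 1 to 3 and 4.87, 12.68, 5.79 and 12.96 in Osx+ replicates 1 to 4. With a division at 8, 4 arrays were high-Xist (2 Ocn+ and 2 Osx+) and 3 were low-Xist (1 Ocn+ and 2 Osx+). The classes did not overlap for 34.3% of all genes, whereas Ocn+ arrays lay wholly apart from Osx+ arrays for 6.90%.

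No member differed between Ocn+ and Osx+ cells by the test. In limma over all 12393 genes, 0 of 36 members passed an adjusted p of 0.05, where 0% of all genes did, and each member's adjusted p was 0.999. At an unadjusted p of 0.05 also 0 of 36 passed, beside 5.31% of all genes, and for 0 of 36 were the 3 Ocn+ arrays apart from the 4 Osx+ arrays, beside 6.90%. Of the members, 13 of 36 had a higher mean in Ocn+ cells, beside 52.7% of all genes, and the median difference was -0.12, beside 0.02 for all genes. The 95% intervals of the difference lay within 1 log2 unit on both sides for 19 of 36 members. For the other 17 a doubling in at least 1 direction lay within the interval, so these arrays do not show that the groups express them alike. In bulk RNA, fewer cycling cells and less RNA per cycling cell cannot be told apart.

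**Figure D1:**
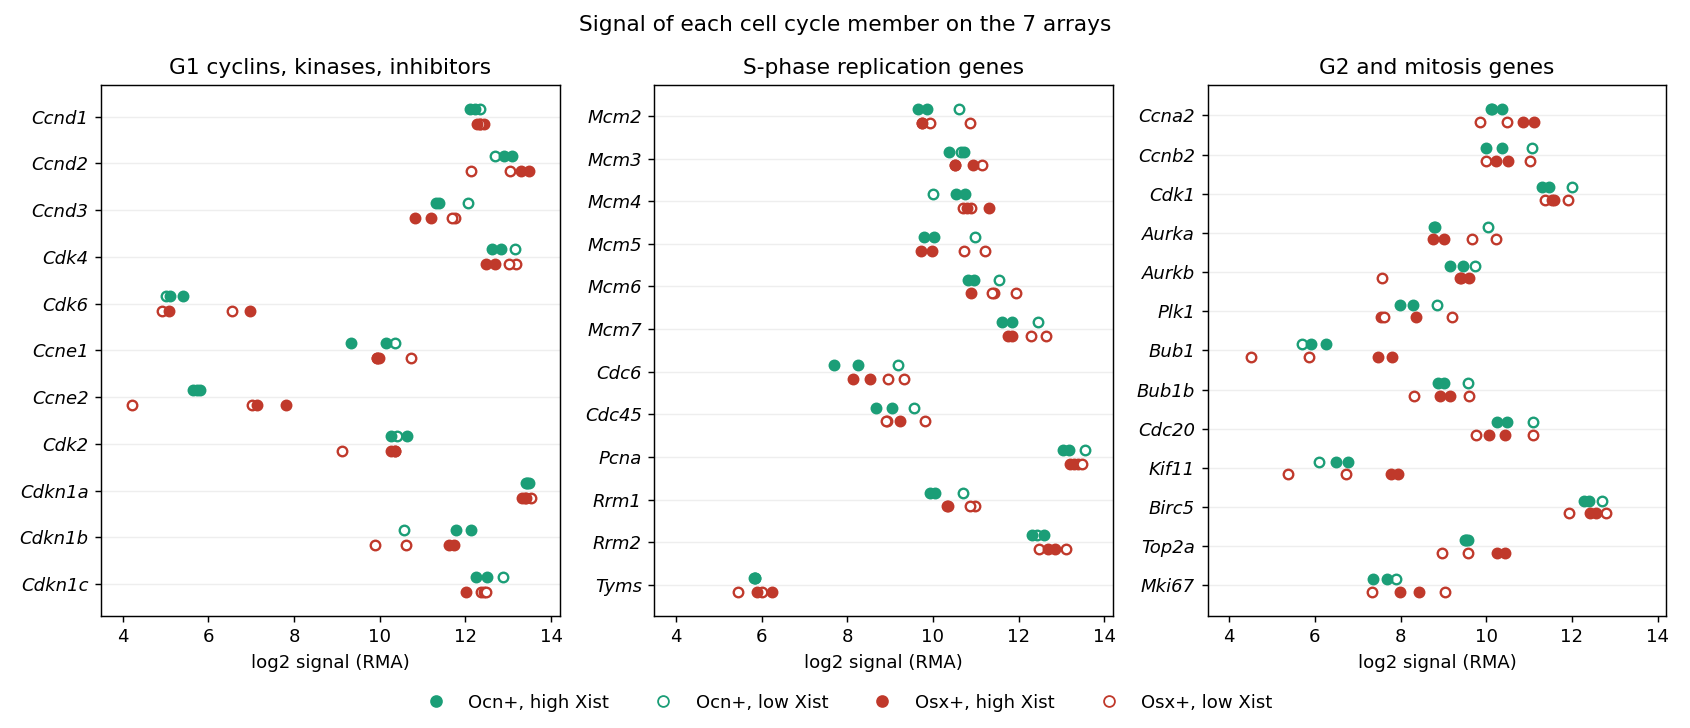
Log2 signal of each member (rows) on each array (points), with Ocn+ arrays in the upper line of a row in green and Osx+ arrays in the lower line in red; filled points are high-Xist and open points low-Xist arrays. In each of the 36 rows the colours overlap, and Ccne2, Bub1 and Kif11 have the widest spread, set by the Osx+ arrays.

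The S-phase genes all had a lower mean in Ocn+ cells, by small amounts. The difference was below 0 for 12 of 12, beside 47.3% of all genes, and ran from -0.50 for Mcm4 to -0.03 for Mcm2, with a median of -0.18. Each was smaller than the range of the gene over the 4 Osx+ arrays. The count rested on single arrays: it was 7 of 12 without Ocn+ replicate 3 and 8 of 12 without Osx+ replicate 1, with medians of -0.04 and -0.07. Ocn+ replicate 3 gave the lowest signal of the 7 arrays for 8 of 12 genes, and Osx+ replicate 1 gave the highest for 8 of 12.

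Mcm4, a subunit of the MCM helicase that unwinds DNA at the replication fork, had the largest S-phase difference. It read 9.999, 10.76 and 10.53 in Ocn+ replicates 1 to 3 and 10.71, 11.31, 10.89 and 10.80 in Osx+ replicates 1 to 4. The groups overlapped only in Ocn+ replicate 2, which lay above Osx+ replicate 1. The difference of -0.50 (SE 0.24, 95% interval -1.07 to 0.07) had an unadjusted limma p of 0.0789, the smallest of the 36 members.

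The other 5 MCM subunits differed by -0.03 (Mcm2) to -0.31 (Mcm6). Mcm6, with its 3 E2F matches above, read 11.55, 10.95 and 10.82 in Ocn+ cells and 11.94, 11.43, 11.39 and 10.89 in Osx+ cells. Its Ocn+ replicate 1 lay above 3 of the 4 Osx+ arrays. The difference was -0.31 (SE 0.29). Mcm2 read 10.61, 9.86 and 9.66 in Ocn+ cells and 10.86, 9.75, 9.93 and 9.76 in Osx+ cells, so that in each group replicate 1 stood highest. Cdc6, which loads the MCM ring at origins, differed by -0.36 with a wide interval (SE 0.42, 95% interval -1.35 to 0.63), by -0.77 without Ocn+ replicate 1 and by -0.02 without Ocn+ replicate 3. Cdc45, which turns the loaded ring into an active helicase, differed by -0.13 (SE 0.30).

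Among the genes that supply nucleotides, Rrm2, the regulated small subunit of ribonucleotide reductase, read 12.42, 12.59 and 12.32 in Ocn+ cells and 13.10, 12.84, 12.47 and 12.68 in Osx+ cells. The highest Ocn+ array lay above the lowest Osx+ array, and the difference was -0.32 (SE 0.19, 95% interval -0.78 to 0.13). Other Rrm2 probe sets gave 0.29 and -0.14. Rrm1, the large subunit, differed by -0.40 (SE 0.27). Tyms, thymidylate synthase, differed by -0.06 (SE 0.21) at a dim signal, under the 25th percentile of all genes, where it is not known whether the signal is above background. Pcna, the clamp that holds the polymerase on DNA, had one of the narrower intervals, with a difference of -0.08 (SE 0.18, 95% interval -0.50 to 0.34).

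**Figure D2:**
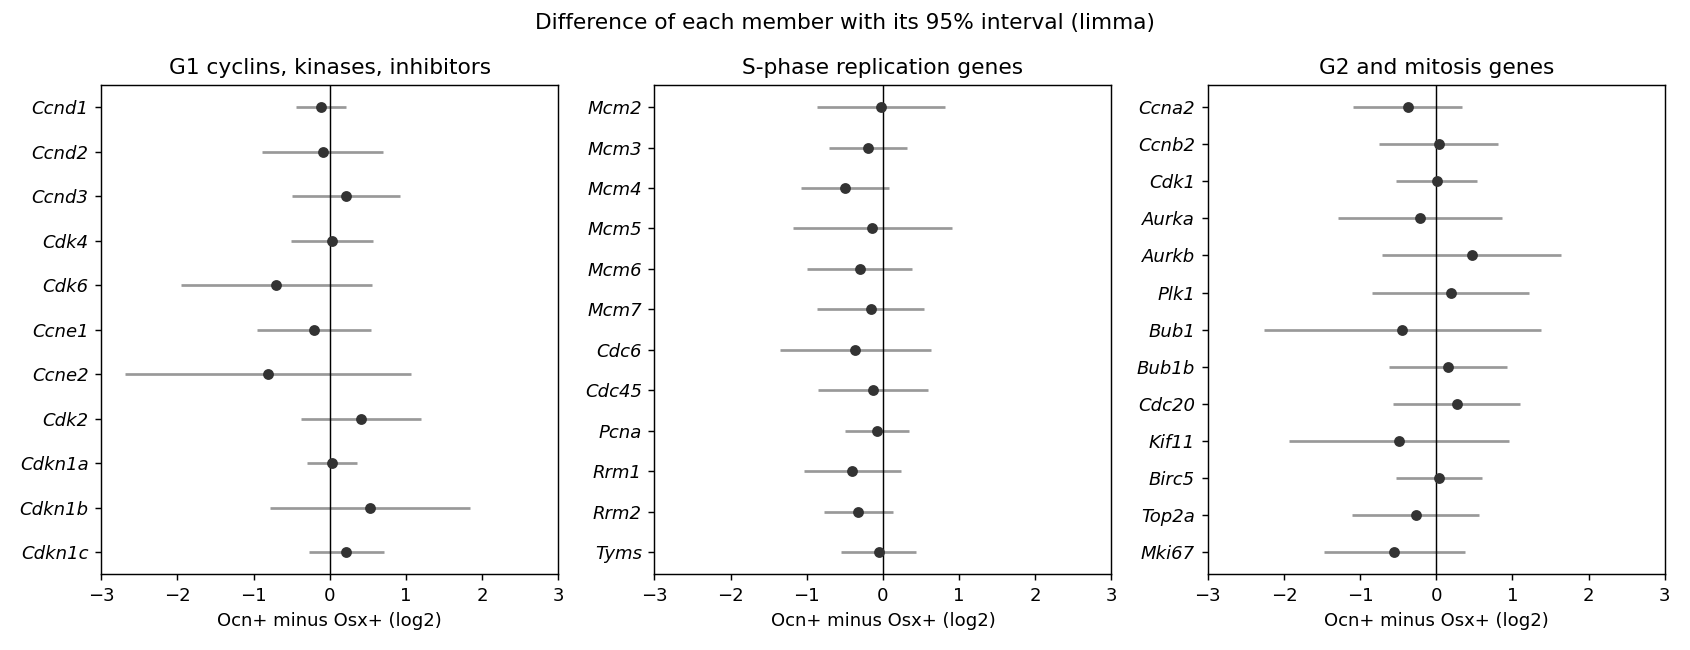
Difference of each member, Ocn+ minus Osx+ in log2 units (points), with its 95% interval from limma (bars), by stage. The 12 S-phase points lie left of 0, the G1 and mitotic points on both sides, and all 36 intervals include 0.

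The G1 genes were divided, with 6 of 11 higher in Ocn+ cells and a median difference of 0.03. All 3 CIP/KIP inhibitors had a higher mean in Ocn+ cells, and 5 of the 8 cyclins and kinases a lower one. Ccnd1, the D-type cyclin that growth factors induce in many cells, read 12.34, 12.12 and 12.23 in Ocn+ cells and 12.34, 12.44, 12.33 and 12.27 in Osx+ cells. It was bright on every array, the ranges met, and the difference was -0.11 (SE 0.14, 95% interval -0.45 to 0.22). Ccnd2 differed by -0.09 (SE 0.34) and Ccnd3 by 0.21 (SE 0.30), and their shared kinase Cdk4 by 0.03 (SE 0.23). Cdk6 read 5.02, 5.11 and 5.41 in Ocn+ cells and 6.55, 6.97, 4.92 and 5.09 in Osx+ cells, so that 2 Osx+ arrays stood above the rest, 1 among the Ocn+ arrays and 1 just below them. It too lay under the 25th percentile of signal, with a difference of -0.70 (SE 0.53).

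The E-type cyclins carry the cell from G1 into S. Ccne2 read 5.74, 5.65 and 5.82 in Ocn+ cells and 4.22, 7.81, 7.01 and 7.14 in Osx+ cells. The 3 Ocn+ values lay close together, between the lowest Osx+ array and the other 3. Its difference of -0.81 (SE 0.80, 95% interval -2.68 to 1.07) was the largest of the 36 members in size and also the least certain. The Ccne2 signal was dim, at percentile 26.4 of all genes, and whether it is above background is not known. Ccne1 differed by -0.21 (SE 0.32). Their partner Cdk2 read 10.41, 10.63 and 10.26 in Ocn+ cells and 10.35, 10.35, 9.11 and 10.26 in Osx+ cells. Osx+ replicate 3 stood apart below the rest, and the difference was 0.41 (SE 0.34).

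Cdkn1a, the inhibitor p21 that p53 induces, was level between the groups, with 13.45 ± 0.04 over the 3 Ocn+ arrays and 13.42 ± 0.08 over the 4 Osx+ arrays (mean ± SD). Its interval of -0.29 to 0.36 was the narrowest of the 36 members. Cdkn1b, the inhibitor p27 of resting cells, read 10.57, 11.79 and 12.12 in Ocn+ cells and 9.89, 11.62, 10.61 and 11.73 in Osx+ cells. In both groups the low-Xist arrays were the low ones, and the difference between Ocn+ and Osx+ was 0.53 (SE 0.56). Cdkn1c, the inhibitor p57, differed by 0.22 (SE 0.21).

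The genes of G2 and mitosis had a median difference of 0.00, with 7 of 13 higher in Ocn+ cells. Cdk1, the kinase of mitotic entry, read 12.01, 11.31 and 11.48 in Ocn+ cells and 11.90, 11.59, 11.37 and 11.53 in Osx+ cells. These ranges nearly coincide, and the difference was 0.00 (SE 0.23, 95% interval -0.53 to 0.54). Its cyclins went either way, Ccna2 by -0.38 (SE 0.30) and Ccnb2 by 0.03 (SE 0.33). Mki67, whose protein coats mitotic chromosomes and is the common stain for cycling cells, read 7.89, 7.68 and 7.37 in Ocn+ cells and 9.04, 7.98, 7.33 and 8.43 in Osx+ cells. Of the 4 Osx+ arrays 3 lay above all Ocn+ arrays and the fourth below them. The difference of -0.55 (SE 0.39, 95% interval -1.48 to 0.38) was the largest in size among the mitotic genes. Top2a, the topoisomerase that untangles sister chromatids, read 9.53, 9.51 and 9.57 in Ocn+ cells and 8.98, 10.24, 9.57 and 10.43 in Osx+ cells, a difference of -0.27 (SE 0.35).

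Among the mitotic kinases, Aurkb of the chromosomal passenger complex read 9.74, 9.15 and 9.46 in Ocn+ cells and 9.41, 9.38, 7.57 and 9.59 in Osx+ cells. A single array, Osx+ replicate 3, carried the difference of 0.46 (SE 0.50), and without it the difference was -0.01. Birc5 (survivin), of the same complex, differed by 0.04 (SE 0.24). Aurka, the kinase of spindle poles, differed by -0.21 (SE 0.46) and Plk1, the Polo kinase, by 0.19 (SE 0.44).

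The checkpoint kinases of unattached kinetochores were also split. Bub1 read 5.70, 6.27 and 5.92 in Ocn+ cells and 4.50, 7.47, 5.87 and 7.79 in Osx+ cells, with Osx+ arrays both above and below all Ocn+ arrays, a difference of -0.44 (SE 0.77). Like Ccne2 it was dim, at percentile 26.6 of all genes. Bub1b differed by 0.16 (SE 0.33). Cdc20, which activates the anaphase-promoting complex, differed by 0.27 (SE 0.35), and the spindle motor Kif11 by -0.49 (SE 0.61). The members were more spread among Osx+ than among Ocn+ arrays: the range over the 4 Osx+ arrays exceeded that over the 3 Ocn+ arrays for 27 of 36 genes, with medians of 0.65 among Ocn+ and 1.08 among Osx+ arrays. A group of 4 tends to a wider range than one of 3, and this difference of spread was not tested. The same count was not made over all genes, so the wider spread is not shown to be particular to these members.

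**Figure D3:**
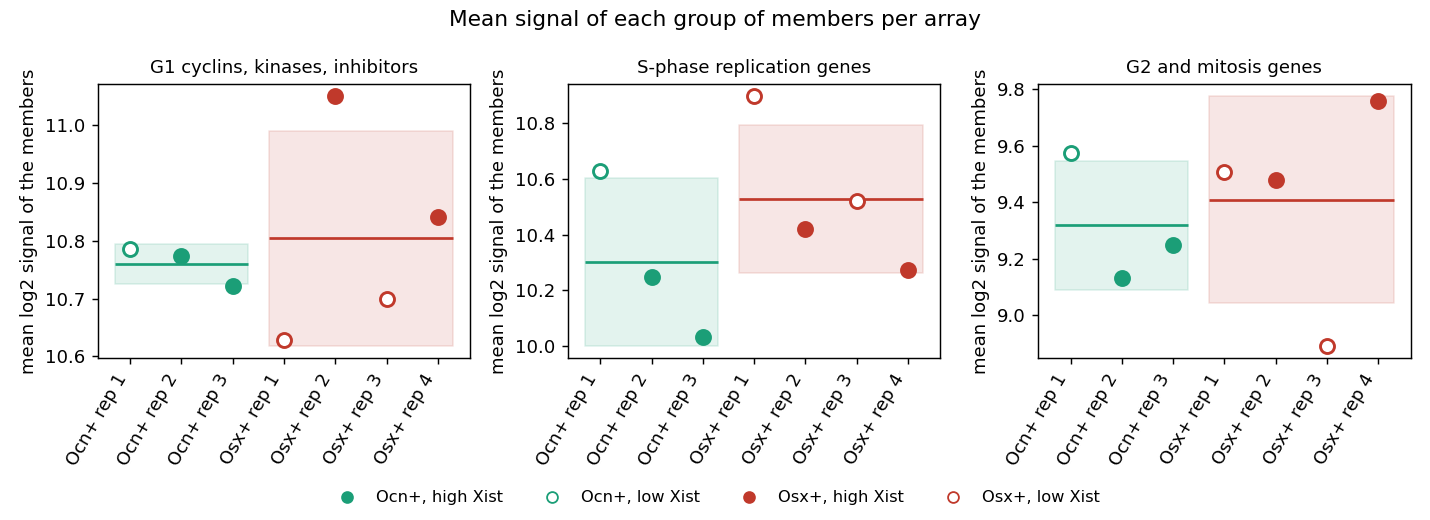
Mean log2 signal of the measured members of each stage (vertical axis, a separate scale for each stage) on each array (horizontal axis), Ocn+ in green and Osx+ in red, filled for high-Xist and open for low-Xist arrays; lines and bands are group means ± SD. In the S-phase panel the 3 open points, 10.63, 10.90 and 10.52, lie above the 4 filled points, which reach 10.42.

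More of the variation of the members followed the Xist classes than the sort. The mean of the 12 S-phase genes was 10.25, 10.03, 10.42 and 10.27 on the high-Xist arrays (Ocn+ replicates 2 and 3, Osx+ replicates 2 and 4) and 10.63, 10.90 and 10.52 on the low-Xist arrays (Ocn+ replicate 1, Osx+ replicates 1 and 3). The classes did not overlap, and the high-Xist mean was lower by 0.44. The G1 means and the mitotic means overlapped between the classes. Gene by gene, the difference between classes exceeded that between Ocn+ and Osx+ in size for 30 of 36 members, beside 69.9% of all genes. The classes did not overlap for 11 of 36 members, 30.6%, near the 34.3% of all genes, so the members took part in a split that ran through the whole array.

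The members that separated the classes did so in both directions, 9 of 36 lower on the high-Xist arrays and 2 of 36 higher, where 21.4% and 12.9% of all genes were. The 9 were the S-phase genes Mcm2, Mcm5, Mcm7, Cdc6, Pcna and Rrm1, the G1 genes Ccnd3 and Cdk4, and Aurka. The 2 were Cdkn1b and Bub1. Aurka averaged 8.83 on high-Xist and 9.98 on low-Xist arrays, and Mcm5 averaged 9.88 and 10.98 on the same classes. Cdkn1b averaged 11.81 on high-Xist and 10.36 on low-Xist arrays, a difference of 1.46. Bub1, at its dim signal, averaged 6.86 and 5.36 on the same classes. The classes were formed from the signal of Xist and are not groups of the study, so these differences carry no test.

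**Figure D4:**
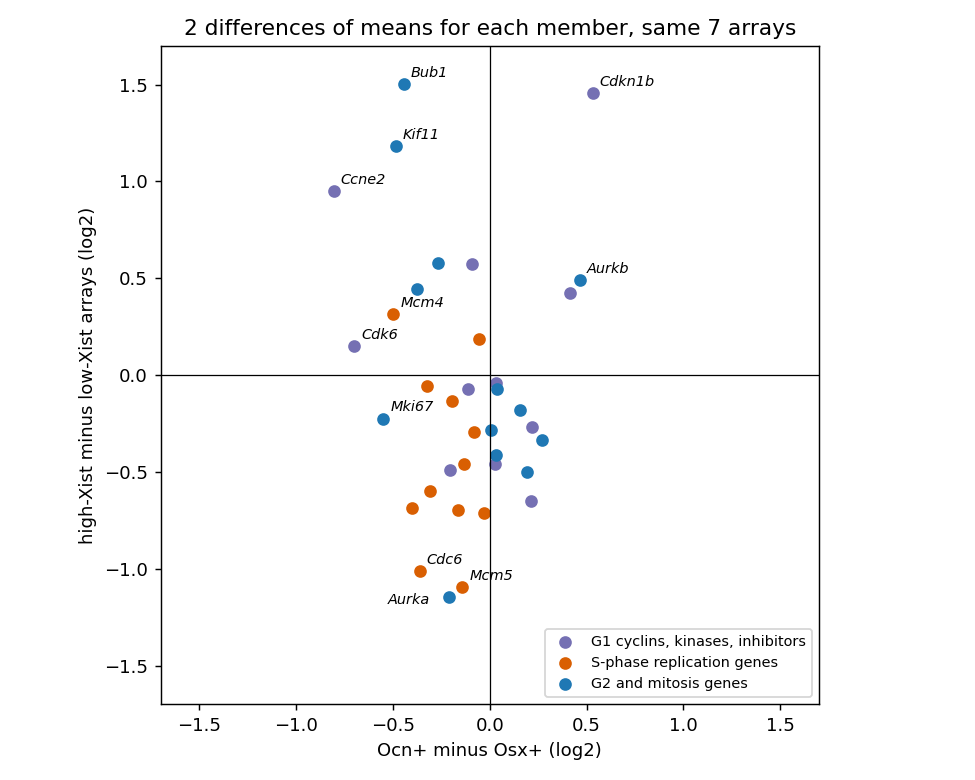
For each of the 36 members, the difference Ocn+ minus Osx+ (horizontal) and high-Xist minus low-Xist (vertical), both in log2 units over the same 7 arrays. The points spread further up and down than sideways, with Bub1 and Cdkn1b near 1.5 at the top and Aurka at -1.15 at the bottom.

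Some other measures also differed between the classes. Sp7 averaged 12.79 on high-Xist and 12.23 on low-Xist arrays, without overlap. It was the 1 of 8 osteolineage markers without overlap, 12.5%, beside 34.3% of all genes. For the Gapdh control probe sets, the signal at the 3′ end exceeded that at the 5′ end by 0.59 to 0.64 log2 units on high-Xist arrays and by 0.89 to 1.26 on low-Xist arrays. For beta-actin it did so by 0.46 to 0.50 and 0.47 to 0.77, which overlap. Between the sorted groups the beta-actin values did not overlap, at 0.463 to 0.475 in Ocn+ and 0.480 to 0.768 in Osx+ arrays. The Gapdh values of the sorted groups overlapped, at 0.60 to 0.89 in Ocn+ and 0.59 to 1.26 in Osx+ arrays. The mean of 8 erythroid precursor markers ran from 6.03 to 7.31 on high-Xist arrays and from 7.38 to 8.46 on low-Xist arrays. Of these 8, 3 did not overlap between the classes, 37.5%, near the 34.3% of all genes. Alas2 and Slc4a1 were lower on high-Xist arrays, and Tfrc, the transferrin receptor of many dividing cells, was higher, by 0.77. The part of Xist class, of RNA quality and of erythroid cells in the S-phase values was not tested. With the class as a term in the limma fit, 0 of 36 members passed, the smallest adjusted p being 0.23, and 10 of 12 S-phase genes stayed lower in Ocn+ cells.

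The mitotic genes leaned different ways in the 2 classes. Among the high-Xist arrays, 2 of 13 were higher in Ocn+ than in Osx+ cells, with a median difference of -0.18. Among the low-Xist arrays, 11 of 13 were higher, with a median of 0.38. Over all genes 58.2% and 51.2% were higher in these comparisons. Bub1 differed by -1.53 among high-Xist and by 0.51 among low-Xist arrays, and Aurkb by -0.18 and 1.25. For the S-phase genes 10 of 12 were lower in Ocn+ cells among high-Xist and 6 of 12 among low-Xist arrays, with medians of -0.22 and 0.00. The high-Xist comparison holds 2 Ocn+ and 2 Osx+ arrays and the low-Xist comparison 1 Ocn+ and 2 Osx+ arrays, and the difference between them was not tested.

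Different probe sets of a gene did not always move alike. Of the 19 members with more than 1 probe set, 8 had probe sets that differed in the sign of Ocn+ minus Osx+, and 8 in the sign of the class difference. The 2 Rrm1 probe sets separated the classes in opposite directions. The one used here averaged 10.16 on high-Xist and 10.85 on low-Xist arrays, the other 8.71 and 8.07. Their differences between Ocn+ and Osx+ were -0.40 and 0.25, so the direction for Rrm1 depends on the probe set. The same holds for Rrm2 (-0.32 to 0.29), Mcm3 (-0.22 to 0.19), Tyms (-0.49 to 0.19) and Top2a (-0.27 to 0.16). With the probe set of largest variance for each gene, 9 of 12 S-phase genes were lower in Ocn+ cells. The 7 Ccnd2 probe sets gave -0.17 to 0.05 for Ocn+ minus Osx+ and -0.21 to 0.99 for the classes. By contrast the 4 Mcm7 probe sets ran in parallel, with -0.16 to -0.09 between Ocn+ and Osx+ and -0.86 to -0.70 between the classes.

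**Figure D5:**
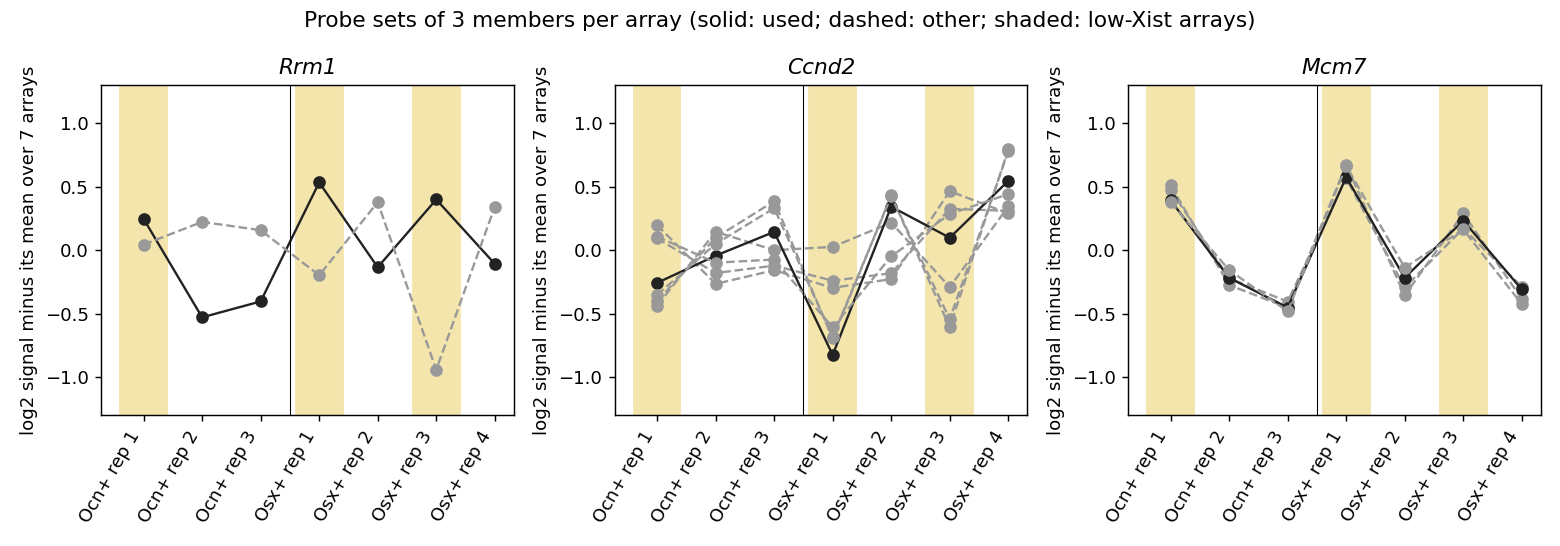
Log2 signal of each probe set of Rrm1, Ccnd2 and Mcm7, minus its own mean over the 7 arrays (vertical), on each array (horizontal), with Ocn+ arrays left of the line and Osx+ arrays right of it; the solid line is the probe set used, dashed lines are the others, and shading marks low-Xist arrays. The Rrm1 lines cross, the Mcm7 lines lie together.

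Other genes of the cycle were counted in the same way. Among E2F factors, pocket proteins and MuvB subunits, 14 of 19 were measured, with a median difference of -0.11. By an adjusted p of 0.05, 0 passed, beside 0% of all genes. At an unadjusted p of 0.05, 0 were higher and 1 lower in Ocn+ cells, beside 3.48% and 1.83% of all genes. The lower one was Rbl1, the pocket protein p107 (-0.77, SE 0.32, unadjusted p = 0.0459). E2f1, the activating E2F factor, differed by -0.21 (SE 0.19). In the same list Lin37, a MuvB subunit, differed by 0.29 (SE 0.24) and Tfdp1, the E2F partner, by 0.17 (SE 0.43).

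Of 40 genes of origin licensing and the replication machinery 36 were measured. At the adjusted and the unadjusted p of 0.05, 0 passed, beside 0% and 5.31% of all genes. Most were lower in Ocn+ cells, 27 of 36, beside 47.3% of all genes, with a median of -0.10. Among high-Xist arrays 24 of 36 were lower, with a median of -0.14. Among low-Xist arrays, with 1 Ocn+ array, 15 of 36 were lower, with a median of 0.095. Orc1 of the origin recognition complex differed by -0.82 (SE 0.44) and the primase subunit Prim2 by -0.34 (SE 0.19). The Orc1 signal was dim, at percentile 28.8 of all genes. Rpa3, of the complex that coats single-stranded DNA, differed by 0.33 (SE 0.20) and the clamp loader subunit Rfc3 by 0.22 (SE 0.23).

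Of 48 spindle, kinetochore and cytokinesis genes 42 were measured, with 20 higher in Ocn+ cells, beside 52.7% of all genes, and a median of -0.05. By adjusted p 0 passed, beside 0% of all genes. By unadjusted p 3 of 42 were lower in Ocn+ cells and 0 higher, beside 1.83% and 3.48% of all genes. The chromokinesin Kif4 read 5.94, 6.04 and 6.26 in Ocn+ cells and 6.53, 6.63, 6.98 and 6.81 in Osx+ cells. The groups did not overlap, with a difference of -0.65 (SE 0.18, unadjusted p = 0.00717, adjusted p = 0.731). Kif4 was dim, at percentile 28.4 of all genes, and whether its signal is above background is not known. The kinetochore subunit Spc25 read 8.93, 8.48 and 8.78 in Ocn+ cells and 9.48, 9.28, 8.99 and 9.34 in Osx+ cells, likewise without overlap (difference -0.54, SE 0.19, adjusted p = 0.888). Its partner in the NDC80 complex, Nuf2, was picked out after seeing the data and differed by -0.56 (SE 0.24, adjusted p = 0.938). On the higher side the checkpoint protein Bub3 differed by 0.19 (SE 0.14) and the kinetochore protein Cenpf by 0.68 (SE 0.51). Cenpf lay under the 25th percentile of signal, and its difference was -0.33 among high-Xist arrays and 2.16 among low-Xist arrays, where 1 Ocn+ array stood against 2.

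All 18 genes of the CDC25, checkpoint kinase and INK4 inhibitor list were measured. At the adjusted and the unadjusted p, 0 passed, beside 0% and 5.31% of all genes. The median difference was 0.06. The checkpoint kinase Chek1 differed by -0.95 (SE 0.43, unadjusted p = 0.0602) and the phosphatase Cdc25c by -0.37 (SE 0.33), while Chek2 differed by 0.43 (SE 0.23) and the INK4 inhibitor Cdkn2c by 0.63 (SE 0.53). Of 17 p53 targets, taken as companions of Cdkn1a, 15 were measured, with a median of 0.15. By adjusted p 0 passed, beside 0% of all genes. By unadjusted p 1 of 15 was higher in Ocn+ cells and 0 lower, beside 3.48% and 1.83% of all genes. Gadd45a, a growth arrest gene of the stress response, read 12.22, 12.56 and 12.43 in Ocn+ cells and 10.96, 11.85, 11.19 and 11.64 in Osx+ cells. The groups did not overlap, with a difference of 0.99 (SE 0.25, unadjusted p = 0.00509, adjusted p = 0.708). Plk2 differed by 0.43 (SE 0.18), Ccng1 by -0.58 (SE 0.51) and Tnfrsf10b by -0.46 (SE 0.43).

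Markers of some other marrow cells, among them cells that divide in marrow, differed by more than the cell cycle genes. By an adjusted p of 0.05, however, 0 of these markers passed, beside 0% of all genes. The mean of 5 azurophil granule precursor markers ran from 9.87 to 10.42 in Ocn+ arrays and from 5.12 to 9.43 in Osx+ arrays, with 5 of 5 higher in Ocn+ cells. Of 10 endothelial markers 10 were higher, at list means of 9.81 to 10.51 in Ocn+ and 6.04 to 9.09 in Osx+ arrays, and of 6 osteoclast markers 6, at 11.15 to 11.69 and 8.37 to 10.76. Of 10 macrophage markers 8 were lower, at 9.28 to 10.72 in Ocn+ and 10.75 to 12.05 in Osx+ arrays, and of 9 cartilage markers 9, at 10.29 to 11.65 and 11.49 to 13.17. The 8 erythroid precursor markers were all lower, at 6.03 to 8.08 in Ocn+ and 6.60 to 8.46 in Osx+ arrays. Of 9 B lymphoid precursor markers 5 were higher, at 6.23 to 6.83 in Ocn+ and 6.05 to 7.20 in Osx+ arrays, and of 8 osteolineage markers 6, at 13.18 to 13.72 and 12.78 to 13.75. Their part in the cell cycle values was not tested.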

How the data were processed

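Total RNA of the sorted cells was amplified with the NuGEN Ovation V2 single-primer method and labelled with biotin, per the labels' protocols. The authors deposited 1 log2 value per probe set and array, and per the submitters' processing notes used RMA. That method gives the probes of all arrays a common distribution before combining them by probe set, which hides changes in RNA amount per cell. Its software version is not given in the sources used here, and no detection calls were used.

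Of 22690 probe sets, 64 were controls, 20380 had 1 gene symbol in the platform annotation, 691 several and 1555 none. Entrez identifiers gave 20351 of the probe sets with 1 symbol its current form. Groups came from the sample titles. Ocn+ minus Osx+ was fitted on 12393 genes with limma 3.58.1 in R 4.3.3 (lmFit, eBayes, 2-sided, no block), and p-values were adjusted by Benjamini-Hochberg across all genes, with a call at 0.05. Intervals are 95% moderated t intervals with 7.17 degrees of freedom. An array has no read depth, and 3 against 4 arrays limit the precision.

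The members, their stages, the other lists and the alternatives were chosen with earlier results of these data known. All 36 measured members are given, and from each other pathway list up to 2 genes per direction by smallest p. Gene lists are described by counts and medians with no test. Alternatives were a replicate block, leaving out arrays, low-signal genes left out, array weights, centring of arrays on their medians, a robust trended prior, quantile normalization run again, other probe sets per gene, the Xist class as a term and, chosen after seeing the data, fits within each Xist class.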

Additional observations from a re-analysis of the deposited data

Results flagged for a closer look

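Among the 4 Osx+ arrays, 1 value stood far from the others for 4 of 39 measures tested (36 members and 3 stage means), by Dixon's test at its 95% critical value. Chance flags about 5% of such groups. Osx+ replicate 1 was high for Ccne1, at 10.74 where the other Osx+ arrays read 9.93 to 9.99, and for Mcm2, at 10.86 where the others read 9.75 to 9.93. Osx+ replicate 3 was low for Cdk2, at 9.11 where the others read 10.26 to 10.35, and for Aurkb, at 7.57 where the others read 9.38 to 9.59. Both are low-Xist arrays. The groups of 3 Ocn+ arrays were too small for this test.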

How the results depend on the processing

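In 17 alternatives (the 7 fits without 1 array among them) limma called 0 of the measured members, the smallest adjusted p being 0.0748, with high-Xist arrays only; by unadjusted p 0 of 36 were called. The fit on low-Xist arrays has 1 Ocn+ array, assumed to vary like the 2 Osx+ arrays, and its lack of calls says nothing about stability. Over all genes the count of 0 became 658 by unadjusted p, 97 with array weights, 19 with high-Xist arrays only and 0 to 3 without 1 array, with 3 without Osx+ replicate 2 and 3 without Osx+ replicate 3. Ocn+ replicate 2 had the highest weight, 6.02, and Osx+ replicate 1 the lowest, 0.24. The median difference of the mitotic members, 0.00 in the fit reported, was -0.22 with array weights, 0.38 with low-Xist arrays only and -0.26 to 0.13 without 1 array, the lowest without Ocn+ replicate 1; the cause was not tested. The S-phase median stayed below 0 in all but the low-Xist fit (0.00), and the G1 median turned to -0.03 with median centring, -0.01 with the mean of all probe sets and -0.03 without Ocn+ replicate 1. The sign of single members turned for 0 to 15 of 36, most with low-Xist arrays only, then 8 with array weights and 8 without Ocn+ replicate 1. Outside the fit on low-Xist arrays and that on the probe set of largest variance, each sign that turned belonged to a difference under its standard error. Replicate numbers were shared by title only. With the replicate block, which leaves Osx+ replicate 4 without a partner, limma called 0 genes, the S-phase median was -0.32 and 11 of 12 S-phase genes were lower in Ocn+ cells. Deviations of same-numbered arrays correlated at 0.63, 0.45 and -0.30. Ocn+ replicate 1 correlated best with Osx+ replicate 1, and Ocn+ replicates 2 and 3 with Osx+ replicate 4. The correlations were positive within an Xist class and negative across the classes, so they cannot show whether the numbers pair the arrays.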

Other observations

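A dim Bub1 probe set that was not used above is the 1 of 71 member probe sets on which the groups did not overlap, as seen after the values were examined. Over all genes, with 1 probe set each, 6.90% did not overlap. This Bub1 probe set read 4.13, 3.99 and 3.92 in Ocn+ cells and 4.63, 4.70, 4.33 and 4.51 in Osx+ cells, a difference of -0.53. Its class difference was -0.08, where the brighter Bub1 probe set had 1.502. No test is given for a probe set picked in this way.

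The arrays at the extremes of the members were few. Osx+ replicate 1 had the highest signal for 15 of 36 members and the lowest for 6. Osx+ replicate 3 had the lowest for 10 of 36, among them 7 of 13 mitotic genes, and Ocn+ replicate 3 the lowest for 9 of 36, among them 8 of 12 S-phase genes.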
